A study of Mus musculus with 8 samples.

Results

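The miR-15/16 family comprises the microRNAs (miRNAs) that carry the seed AGCAGCA at bases 2 to 8, the stretch that pairs with target mRNAs. It was represented by 6 of the 381 assays on the card: miR-15a, miR-15b, miR-16, miR-195, miR-497 and miR-322. The rule for membership was the name and the seed and used no measured value, although the family was picked with earlier results of these data known. Total liver RNA came from untreated mice and from mice given carbon tetrachloride (CCl4) for 1, 4 or 8 weeks, with 2 TaqMan cards for each of these 4 groups and 8 cards in all. CCl4 is a solvent that hepatocytes convert to a toxic radical, and repeated dosing is a standard model of liver fibrosis. All mice were C57B6 females aged 4 weeks when dosing began. The solvent was diluted in corn oil and injected into the peritoneum, biweekly by the labels and 2 times a week by the methods, at a dose written as 1 mg/kg in the labels and as 1 ml/kg in the study's methods. The labels list no treatment for the controls and do not mention a corn oil injection in them. They number 2 replicates in each group without saying that these were separate mice, so the p-values measure only the spread between these samples, which may be technical. The question for the family is whether miRNAs with 1 seed moved together or apart during the injury.

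The family is known for restraining the cell cycle. Its members repress cyclins and other drivers of the G1 to S transition as well as the survival protein Bcl2, and the miR-15a/miR-16-1 locus is commonly lost in chronic lymphocytic leukaemia. The genes lie in separate clusters, each of which is transcribed as 1 long primary RNA that is then cut into hairpins. Mir15a and Mir16-1 lie within the long non-coding RNA Dleu2, Mir15b and Mir16-2 within Smc4, which encodes a condensin subunit, and Mir322 within the long non-coding RNA C430049B03Rik. In the RefSeq annotation of GRCm38.p6, the mature arms of the paired genes start 139 bases apart for miR-15a and miR-16-1, 143 for miR-15b and miR-16-2, 332 for miR-497 and miR-195, and 279 for miR-322 and miR-503.

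The mature sequences of all 6 members were found in the RefSeq table and are shown 5′ to 3′ because the members share the seed and differ in the bases around it. The seed, bases 2 to 8, is in capitals. The locus of miR-15a is chr14:61632075-61632096 on the minus strand, that of miR-15b chr3:69009775-69009796 on the plus strand, that of miR-195 chr11:70235062-70235082 on the plus strand, that of miR-497 chr11:70234730-70234751 on the plus strand and that of miR-322 chrX:53054306-53054327 on the minus strand. Mature miR-16 has 2 loci, chr14:61631936-61631957 on the minus strand and chr3:69009918-69009939 on the plus strand.
miR-15a: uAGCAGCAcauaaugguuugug
miR-15b: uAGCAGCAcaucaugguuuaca
miR-16: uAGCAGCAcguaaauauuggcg
miR-195: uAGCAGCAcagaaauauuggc
miR-497: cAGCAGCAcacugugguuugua
miR-322: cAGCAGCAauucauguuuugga

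Both miR-16 genes give the same mature sequence, so the miR-16 assay reads the sum of the Dleu2 and Smc4 clusters. Over the whole length, miR-16 and miR-195 are the closest pair, identical at 19 of 21 positions. After base 8 they are identical at 11 of 13 positions, with a shared run of 10 bases, aaauauuggc. miR-15a resembles miR-15b, identical at 18 of 22 positions over the whole length and at 10 of 14 after base 8, and miR-497, with which it shares the 8 bases ugguuugu. Of the 1679 mature mouse names in the table, 10 (0.596%) carry this seed. Cross-reaction between these assays was not tested.

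All 6 members gave a threshold cycle (Ct, the PCR cycle at which the signal crosses the threshold, lower for more template) on all 8 cards. By mean Ct over the cards the order was miR-16 (22.1), miR-195 (26.3), miR-15a (27.9), miR-15b (28.1), miR-497 (30.5) and miR-322 (30.7). Each assay's amplification efficiency is unknown, so this order is a description. To compare cards, the Ct of the assay was subtracted from the mean Ct of 149 assays that stayed below Ct 35 throughout, and the difference is called the level. It is on a log2 scale, and 1 unit is 1 cycle. On this scale miR-16 lay between 4.86 and 7.80 and miR-195 between 1.61 and 2.68, and neither range overlapped that of the next member in the order of miR-16, miR-195 and miR-15a. The range of miR-15b, from -1.30 to 1.82, took in that of miR-15a, from -0.44 to 1.48, and reached that of miR-195. The ranges of miR-497, from -2.98 to -1.13, and miR-322, from -3.09 to -1.42, overlapped over most of their length. If every assay doubled its product in each cycle, miR-16 would have made up 78.0% to 97.4% of the summed family signal on a card, lowest on a card of 4 weeks and highest on a card of 1 week. Levels were compared between groups with limma, fitted across the 166 assays with 8 Ct values and a mean Ct under 35, and called at an adjusted p of 0.05 or less over all 166.

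**Figure D1:**
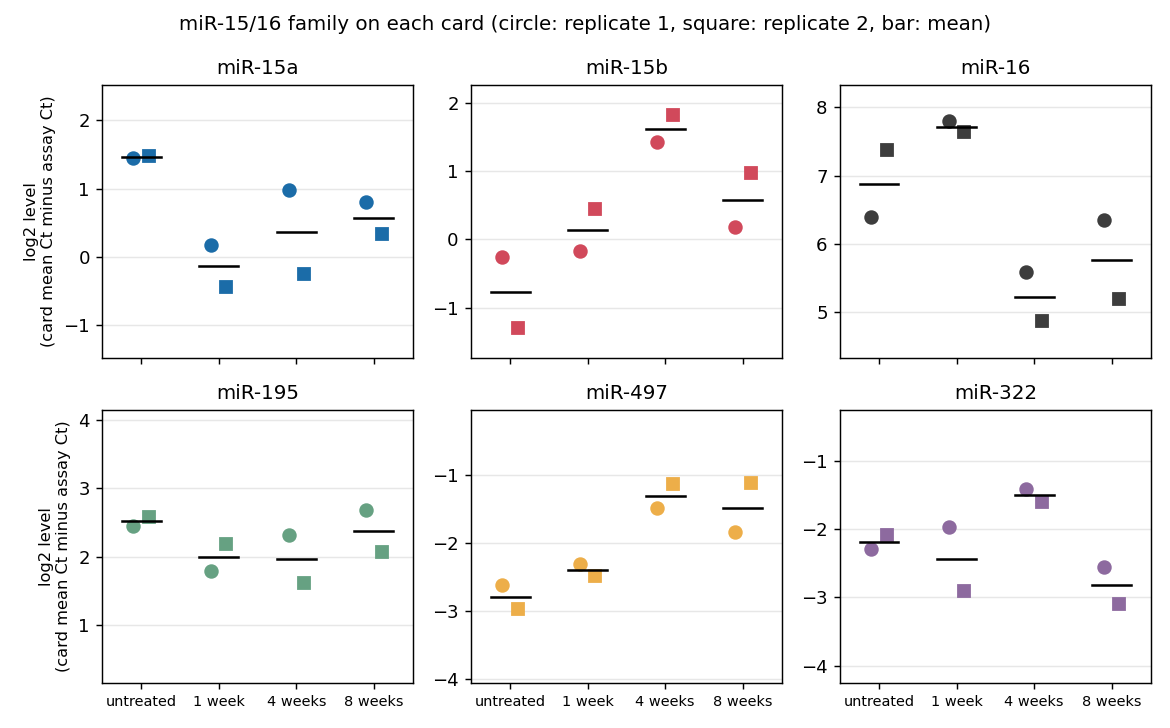
Level of each family member on each card, as the card mean Ct minus the assay Ct (log2 scale), for untreated mice and after 1, 4 and 8 weeks of CCl4; circles are replicate 1, squares replicate 2 and bars the mean of the 2 cards. All panels span the same number of units on different ranges. The 6 treated cards lie below both untreated cards for miR-15a and above both for miR-15b and miR-497, whereas miR-16 is highest at 1 week, near 7.72, and lowest at 4 weeks, near 5.22.

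The members did not move as a block. Whole liver holds many cell types, and in such samples fewer cells of a type and less RNA per cell cannot be told apart. At 1 week, 1 of 6 members was called (miR-15a, lower), and the median log2 fold change of the 6 was 0.08, against -0.09 over all assays. In that comparison 32.5% of all assays tested were called, 18.1% higher and 14.5% lower. At 4 weeks, 3 of 6 were called, with miR-15b and miR-497 higher and miR-16 lower, and the members spread over 4.06 log2 units around a median of 0.06, against 0.03 over all assays. The background at 4 weeks was 30.1% called, 13.3% higher and 16.9% lower. At 8 weeks limma called 0 of 6 members, 2 of them (miR-15b and miR-497) having an unadjusted p under 0.05, when only 3.01% of assays were called, 2.41% higher and 0.602% lower. The median of the 6 at 8 weeks was -0.39, against -0.04 over all assays. For the mean of the 3 times against untreated, miR-15b and miR-497 were called higher and miR-15a lower, against a background of 28.9% called, 12.7% higher and 16.3% lower. These comparisons share the same 2 untreated cards and are not independent of one another. Shares of all assays were counted for all 6 treated cards lying on 1 side of both untreated cards, and for no other order of cards.

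**Figure D2:**
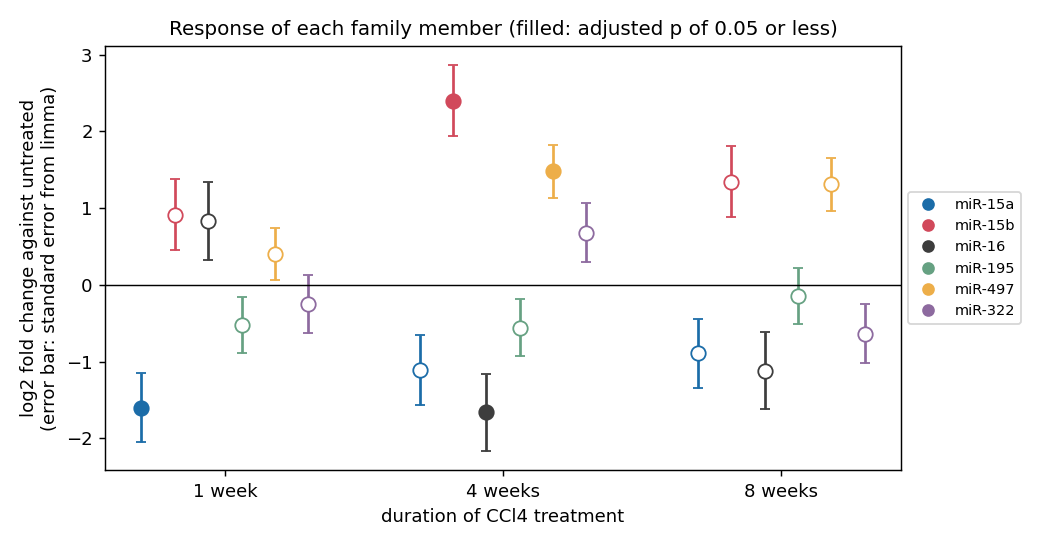
Log2 fold change of each member against untreated at 1, 4 and 8 weeks of CCl4, with the standard error from limma as error bar (2 cards per group); filled points have an adjusted p of 0.05 or less. At 4 weeks the members run from -1.66 (miR-16) to 2.40 (miR-15b).

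miR-15a, made from the Dleu2 cluster, was lower on every treated card. Its levels were 1.45 and 1.48 without treatment, 0.18 and -0.44 (1 week), 0.97 and -0.26 (4 weeks) and 0.80 and 0.34 (8 weeks). The groups did not overlap: all 6 treated cards lay below both untreated cards, which held for 16.3% of all tested assays. It fell by 1.60 (SE 0.45) on the log2 scale at 1 week, to 0.330 of the untreated level, with an adjusted p of 0.0308. The differences at 4 weeks, -1.10 (adjusted p = 0.103), and at 8 weeks, -0.89 (adjusted p = 0.245), were not called. Without 4 weeks replicate 1 the difference at 4 weeks was -1.72 and was called (adjusted p = 0.0270), and over the fits with 1 card left out it ran from -1.72 to -0.49. The mean over the 3 times was -1.20 (SE 0.37, adjusted p = 0.0460). The call at 1 week was lost when either card of untreated mice (adjusted p = 0.136 without replicate 1 and 0.104 without replicate 2) or either card of 1 week (0.0619 without replicate 1 and 0.177 without replicate 2) was left out. That over the mean of the times was lost without any 1 of those 4 cards or of the 2 cards of 8 weeks, with adjusted p values up to 0.200. It was also lost in 6 of 13 other settings, among them quantile normalization (adjusted p = 0.167) and the endogenous control RNAs (0.150), and the call at 1 week was lost with quantile normalization (0.111).

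miR-15b, the Smc4 cluster's counterpart of miR-15a, moved the other way. Its levels were -0.25 and -1.30 without treatment, -0.16 and 0.44 (1 week), 1.42 and 1.82 (4 weeks) and 0.17 and 0.97 (8 weeks). All 6 treated cards lay above both untreated cards, as they did for 13.3% of all tested assays, although the lowest card of 1 week exceeded the higher untreated card by less than the untreated cards differed from each other. It rose by 2.40 (SE 0.46) on the log2 scale at 4 weeks, 5.28-fold, with an adjusted p of 0.00868. The differences of 0.91 at 1 week (adjusted p = 0.168) and 1.35 at 8 weeks (adjusted p = 0.144) were not called. Over the mean of the 3 times it was 1.55 higher (SE 0.38, adjusted p = 0.0220). With no normalization the rise at 4 weeks was 1.56 (adjusted p = 0.288) and that over the mean 1.10 (0.491), neither called. The call over the mean was also lost with the card mean of every assay with a Ct (adjusted p = 0.0555) and with undetermined values set to Ct 40 (0.0594). Without untreated replicate 2, the card with the lowest miR-15b, the rise at 4 weeks was 1.88 with an adjusted p of 0.0542, and that over the mean was 1.03 with an adjusted p of 0.168. The mean was also not called without 1 week replicate 2, at an adjusted p of 0.0507.

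The ratio of miR-15b to miR-15a on the same card, which needs no centring, was chosen after the values were seen. The log2 ratio was -1.70 and -2.78 without treatment, -0.34 and 0.88 (1 week), 0.45 and 2.08 (4 weeks) and -0.63 and 0.63 (8 weeks). Every treated card was above both untreated cards, which relative to miR-15a held for 44.8% of the 165 other assays. That outcome was fixed by the levels above, with miR-15a below and miR-15b above both untreated cards on every treated card. The ratio is therefore not separate support for the differences of these members. In a limma fit of all 165 other assays relative to miR-15a, the ratio was higher by 2.51 at 1 week (adjusted p = 0.0108) and by 3.51 at 4 weeks (adjusted p = 0.00346), and by 2.24 at 8 weeks without a call (adjusted p = 0.0684). Relative to miR-15a, 45.5%, 28.5% and 4.24% of assays were called in these 3 comparisons, and the median over all assays was higher by 1.52, 1.14 and 0.87. The call at 1 week was lost without untreated replicate 2 (adjusted p = 0.114) or without 1 week replicate 2 (adjusted p = 0.146), whereas that at 4 weeks was kept without each card in turn, with adjusted p values up to 0.0407. At 8 weeks the ratio was called without either card of 4 weeks (adjusted p = 0.0151 for each) or without 8 weeks replicate 1 (2.87, adjusted p = 0.0304), and without 8 weeks replicate 2 it was 1.61 (adjusted p = 0.552).

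miR-16, the most abundant member by Ct and often used as a reference miRNA in blood, was high at 1 week and low later. Its levels were 6.40 and 7.37 without treatment, 7.80 and 7.64 (1 week), 5.58 and 4.86 (4 weeks) and 6.34 and 5.19 (8 weeks). Both cards of 1 week exceeded the untreated cards and all 4 later cards lay below them, the first card of 8 weeks narrowly. How many of all assays had this order was not counted. The difference from untreated was 0.83 at 1 week (SE 0.50, adjusted p = 0.230), which was not called. At 4 weeks miR-16 fell by 1.66 (SE 0.50) on the log2 scale, a 3.16-fold reduction, with an adjusted p of 0.0426. At 8 weeks the difference was -1.12 (adjusted p = 0.201). The call at 4 weeks was lost without untreated replicate 1 (adjusted p = 0.0515) or 2 (0.227), without either card of 1 week (0.0634 for each) and without 4 weeks replicate 2 (0.181). With the endogenous control RNAs as the scale the difference at 4 weeks was -1.02 and was not called (adjusted p = 0.135). With quantile normalization it was -0.63 (adjusted p = 0.399). A replicate block, which groups the cards of the same number, also lost this call (adjusted p = 0.0536).

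The change between times was larger than either change against untreated for this miRNA. From 1 to 4 weeks, 3 of 6 members were called, 47.0% of all assays being called (21.7% higher and 25.3% lower). miR-16 was lower at 4 weeks than at 1 week by 2.49 log2 units (SE 0.50, adjusted p = 0.00903), a 5.63-fold difference. Of the fits with 1 card left out, that without 4 weeks replicate 2 lost the call (adjusted p = 0.0513). With quantile normalization the difference was -1.18 and was not called (adjusted p = 0.113). miR-15b was 1.49 higher (adjusted p = 0.0327) and miR-497 1.08 higher (adjusted p = 0.0350) over the same interval. The call of miR-15b was lost without any 1 of the 4 cards of 1 and 4 weeks (adjusted p up to 0.165) and that of miR-497 also without either untreated card (adjusted p up to 0.149 over these 6 fits). From 1 to 8 weeks miR-16 alone was called of the 6, lower by 1.95 (adjusted p = 0.0332), when 24.1% of assays were called. That call was lost without either card of 1 week (adjusted p = 0.122 without replicate 1 and 0.125 without replicate 2) or without 8 weeks replicate 2 (0.171), and with quantile normalization the difference was -0.82 (adjusted p = 0.251). Between 4 and 8 weeks limma called 0 of 6 members and 1.20% of assays. The only member with an unadjusted p under 0.05 was miR-322, lower by 1.32 at 8 weeks than at 4 weeks (adjusted p = 0.149).

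miR-195, which in the heart is induced after birth and slows cardiomyocyte division, had the narrowest range of levels of the 6 over the cards. Its levels were 2.46 and 2.58 without treatment, 1.80 and 2.19 (1 week), 2.31 and 1.61 (4 weeks) and 2.68 and 2.07 (8 weeks). The treated cards were below both untreated cards on 5 of 6, and the exception, the first card of 8 weeks, was above both. The differences of -0.53, -0.55 and -0.14 had adjusted p values of 0.282, 0.277 and 0.810. With the endogenous control RNAs as the scale, the differences at 4 and 8 weeks had the opposite sign, 0.09 and 0.32.

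miR-497 is transcribed together with miR-195, yet its centred level was higher on every treated card. Its levels were -2.62 and -2.98 without treatment, -2.30 and -2.49 (1 week), -1.50 and -1.15 (4 weeks) and -1.85 and -1.13 (8 weeks). All 6 treated cards lay above both untreated cards, as for 13.3% of all tested assays. However, the lower card of 1 week exceeded the higher untreated card by less than the untreated cards differed from each other. The cards of 4 and 8 weeks also lay above both cards of 1 week, an order not counted over all assays. It rose by 1.48 (SE 0.34) on the log2 scale at 4 weeks, 2.79-fold, with an adjusted p of 0.0142. The difference was 0.40 at 1 week (adjusted p = 0.364) and 1.31 at 8 weeks (SE 0.34, adjusted p = 0.0792), and over the mean of the 3 times it was 1.06 (adjusted p = 0.0273). The call at 4 weeks was lost without untreated replicate 1 (adjusted p = 0.0512) or 2 (0.0871) or 4 weeks replicate 2 (0.0752). That over the mean was lost without either untreated card or either card of 1 week, with adjusted p values up to 0.173. When the card mean was taken over every assay with a Ct, the rise at 4 weeks was 1.20 and was not called (adjusted p = 0.0889). With no normalization it was 0.64 (adjusted p = 0.739), and the difference at 1 week had the opposite sign, -0.11 (0.966).

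The ratio of miR-497 to its cluster partner miR-195 on the same card was also examined after the values were seen. The log2 ratio was -5.08 and -5.56 without treatment, -4.10 and -4.68 (1 week), -3.81 and -2.76 (4 weeks) and -4.53 and -3.20 (8 weeks). All 6 treated cards were above both untreated cards, as they were for 18.8% of the other assays relative to miR-195. Fitted over all 165 other assays relative to miR-195, the ratio was higher by 2.04 at 4 weeks (SE 0.58, adjusted p = 0.0269), and by 0.93 at 1 week (adjusted p = 0.286) and 1.46 at 8 weeks (adjusted p = 0.252) without a call. On this reference 20.6%, 21.8% and 0.606% of assays were called at the 3 times, and the median over all assays was higher by 0.45, 0.59 and 0.12. The call at 4 weeks was lost without untreated replicate 1 (adjusted p = 0.0990) or 2 (0.170), without either card of 1 week (0.0510 for each) and without 4 weeks replicate 2 (0.137).

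**Figure D3:**
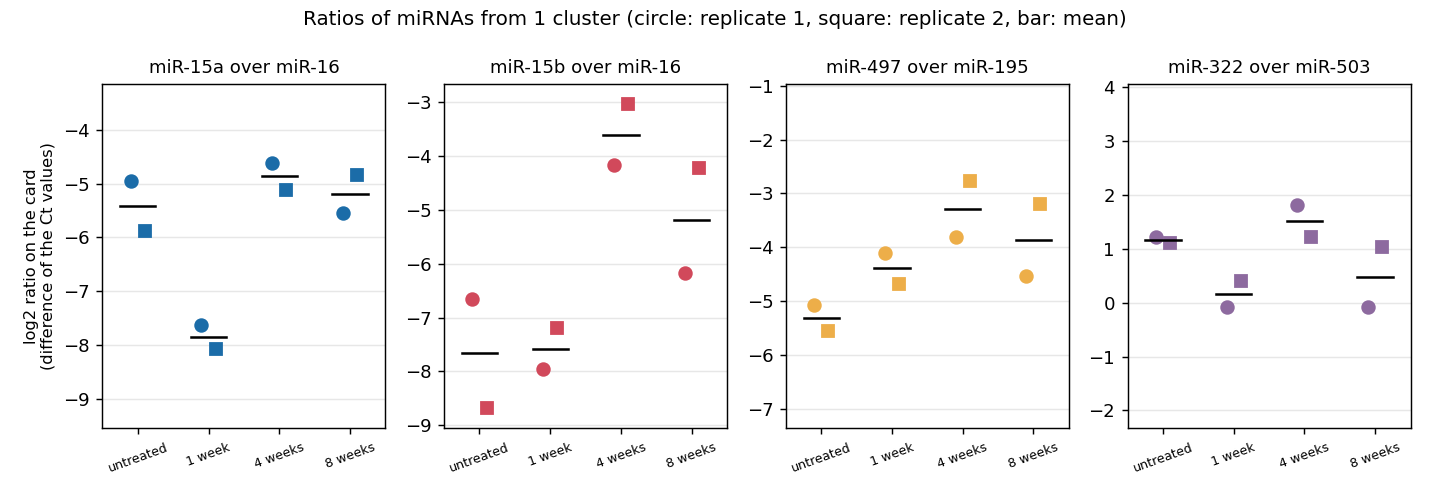
Log2 ratio of 2 miRNAs from 1 cluster on the same card (difference of their Ct values) in untreated mice and after 1, 4 and 8 weeks of CCl4; circles are replicate 1, squares replicate 2 and bars the mean of the 2 cards. miR-16 has a gene in each of the first 2 clusters, and its assay reads both. The ratio of miR-15a to miR-16 is lowest at 1 week (mean -7.85), while those of miR-15b to miR-16 and miR-497 to miR-195 are highest at 4 weeks (means -3.60 and -3.29).

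miR-322, the mouse counterpart of human miR-424 and linked to muscle differentiation, had no called difference from untreated at any time. Its levels were -2.28 and -2.09 without treatment, -1.96 and -2.90 (1 week), -1.42 and -1.60 (4 weeks) and -2.56 and -3.09 (8 weeks). Both cards of 4 weeks were above, and both of 8 weeks below, the untreated cards, and the cards of 1 week fell on either side. The share of all assays with this order was not counted. The differences were -0.25, 0.68 and -0.64 at 1, 4 and 8 weeks, with adjusted p values of 0.635, 0.209 and 0.283. Scaled to the endogenous control RNAs, the difference at 4 weeks was 1.32 and was called (adjusted p = 0.0362), and without any scaling it was -0.17.

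Ratios to miR-16 on the same card tested whether other members moved apart from the most abundant one. At 1 week, 1 of 5 members was called, against 12.7% of the 165 assays tested this way. It was miR-15a, whose log2 ratio to miR-16 was -4.95 and -5.89 in untreated liver and -7.62 and -8.08 at 1 week, a fall of 2.43 (SE 0.67, adjusted p = 0.0296) when the median over all assays was -0.93. Both cards of 1 week lay below the untreated cards, and the cards of 4 weeks (-4.61 and -5.12) and 8 weeks (-5.54 and -4.85) were back among or above them. Leaving out untreated replicate 1 (adjusted p = 0.270), 1 week replicate 1 (0.175) or 1 week replicate 2 (0.248) lost the call. At 4 weeks, 3 of 5 members were called, where 50.9% of assays were called and the median ratio over all assays had risen by 1.69. These were miR-15b, higher by 4.06 (SE 0.82, adjusted p = 0.00161), miR-497 by 3.14 (adjusted p = 0.00457) and miR-322 by 2.34 (adjusted p = 0.0113). miR-15b was called without each card in turn (adjusted p up to 0.0407), with differences from 3.05 to 5.07, while miR-497 and miR-322 were not called without untreated replicate 2 (adjusted p = 0.0772 and 0.118) or 4 weeks replicate 2 (0.0727 and 0.123). At 8 weeks limma called 0 of 5 members and 7.88% of assays, and the median over all assays was 1.10 higher. miR-15b (2.47 higher, adjusted p = 0.0672) and miR-497 (2.43 higher, adjusted p = 0.0540) had an unadjusted p under 0.05. Over the fits with 1 card left out these differences ran from 1.455 to 3.475 for miR-15b and from 1.495 to 3.365 for miR-497.

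The summed signal of the family assumes equal amplification of the assays and, since miR-16 made up most of it on every card, mainly repeats the values of miR-16. Relative to the mean of the untreated cards it was 0.696 and 1.30 without treatment, 1.70 and 1.53 (1 week), 0.434 and 0.278 (4 weeks) and 0.677 and 0.331 (8 weeks). Both cards of 1 week were above, and all later cards below, the untreated cards. The share of miR-15b in this sum was 0.896% and 0.232% in untreated liver, 0.391% and 0.657% (1 week), 4.60% and 9.48% (4 weeks) and 1.24% and 4.40% (8 weeks). Such shares also move with miR-16.

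Of 21 names listed as cluster neighbours, opposite strands and near-seed relatives, 8 were on the card and 5 were tested. The sequences of a cluster partner and of a near-seed relative show how they differ from the family, with bases 2 to 8 in capitals. miR-503 lies at chrX:53054027-53054049 on the minus strand and miR-107 at chr19:34820700-34820722 on the minus strand.
miR-503: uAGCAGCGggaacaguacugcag
miR-107: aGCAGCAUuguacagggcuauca

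Of the 5 relatives tested, 1 was called higher and 1 lower at 1 week, and likewise at 4 weeks, when 32.5% and 30.1% of all assays were called. The higher one at both times was miR-450a-5p, encoded near miR-322 on the X chromosome. Its levels were -4.43 and -5.43 without treatment, -2.66 and -1.90 (1 week), -2.51 and -1.09 (4 weeks) and -3.41 and -2.68 (8 weeks), all treated cards lying above both untreated cards as for 13.3% of assays. The differences were 2.65 at 1 week (adjusted p = 0.0139), 3.14 at 4 weeks (adjusted p = 0.00758) and 1.89 at 8 weeks (adjusted p = 0.114). Without untreated replicate 2 neither call was kept (adjusted p = 0.0667 at 1 week and 0.0542 at 4 weeks), and without 1 week replicate 2 that at 1 week was lost (0.0863). miR-503, the partner of miR-322, differed by 0.76, 0.33 and 0.05 at the 3 times (adjusted p = 0.360, 0.726 and 0.951). miR-542-5p, from the same region of the X chromosome, differed by 0.01, -0.74 and -0.94, with none called. Of the other neighbours, miR-351 had a Ct on 7 cards, miR-542-3p on 5 and miR-450b-5p on 0, so these were not tested. The log2 ratio of miR-322 to miR-503 was 1.23 and 1.11 without treatment, -0.08 and 0.41 (1 week), 1.82 and 1.23 (4 weeks) and -0.07 and 1.04 (8 weeks).

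The seed of miR-103 and miR-107 holds 6 of the family's seed bases shifted by 1. miR-107 was the relative called lower. Its levels were -1.64 and -1.83 without treatment, -2.58 and -3.93 (1 week), -4.47 and -4.23 (4 weeks) and -3.12 and -2.82 (8 weeks), all treated cards lying below both untreated cards as for 16.3% of assays. It fell by 1.52 on the log2 scale at 1 week (adjusted p = 0.0338) and by 2.61 at 4 weeks (adjusted p = 0.00579). The call at 4 weeks was kept without each card in turn (adjusted p up to 0.0365), and that at 1 week was lost without untreated replicate 1 (0.165) or 2 (0.0902) or 1 week replicate 2 (0.177, with a difference of -0.85). miR-103 differed by -0.91, -0.87 and -0.48 and was not called (adjusted p = 0.0682, 0.0835 and 0.359).

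**Figure D4:**
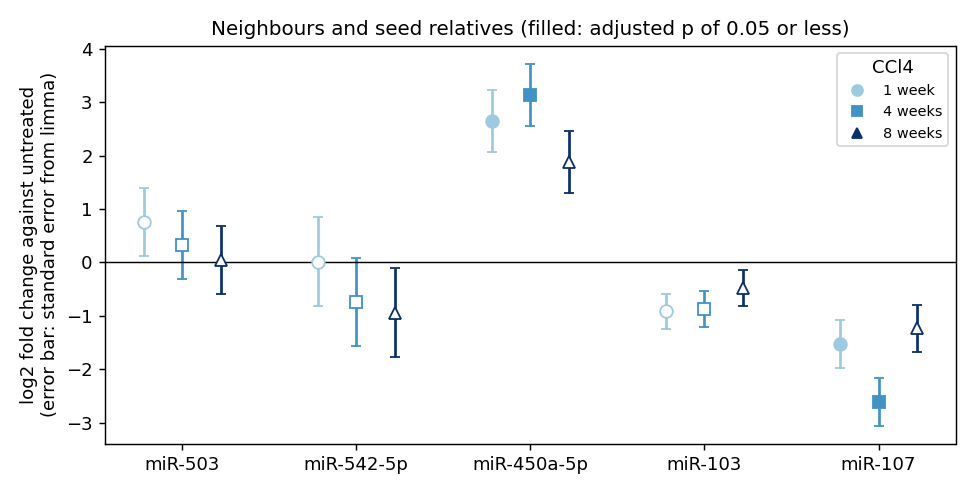
Log2 fold change against untreated of the 5 tested cluster neighbours and near-seed relatives at 1 week (light circles), 4 weeks (squares) and 8 weeks (dark triangles) of CCl4, with the standard error from limma as error bar (2 cards per group); filled points have an adjusted p of 0.05 or less. miR-450a-5p and miR-107 are filled at 1 and 4 weeks, on opposite sides of 0.

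The pattern of each member over the 8 cards was set against every tested assay outside the family by the root mean square difference after removal of each assay's mean. miR-16 was most like miR-126-3p, a miRNA of endothelial cells (0.215 log2 units), followed by miR-429 and miR-191 (0.386 for each). miR-195 was most like miR-140 (0.157) and miR-143 (0.271), then miR-26b. miR-15a was nearest to miR-26b (0.377) and miR-27b (0.381), then to the small nucleolar RNA U87. The nearest assays to miR-15b were miR-132 (0.408), miR-214 (0.459) and miR-99b (0.486), and those to miR-497 were miR-214 (0.295), miR-99b (0.353) and miR-532-3p (0.357). miR-322 was nearest to miR-21 (0.377), miR-93 and miR-130b. Within the family the closest pairs were miR-15b with miR-497 (0.461) and miR-15a with miR-195 (0.484), and the farthest was miR-15b with miR-16 (1.88). The median difference from assays outside the family was 1.14 for miR-15b, 1.17 for miR-16 and 0.96 for miR-497. It was 0.91 for miR-15a, 0.75 for miR-195 and 0.87 for miR-322. The values are descriptions over 8 cards in 4 groups that share 1 centring.

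Lists of miRNAs enriched in the cell types of the liver were measured on the same cards. Of 5 hepatocyte miRNAs, 1, 4 and 1 were called lower at 1, 4 and 8 weeks, against 14.5%, 16.9% and 0.602% of all assays, their median differences being -0.79, -2.49 and -1.18. miR-122, the defining hepatocyte miRNA, had a mean Ct of 22.8 and differed by -1.20, -0.23 and 0.09 without a call. Of 6 leukocyte miRNAs, 5, 4 and 0 were called higher, against 18.1%, 13.3% and 2.41% of all assays, with medians of 1.71, 1.31 and 0.72. Their summed level, relative to untreated, was 0.745 to 1.26 without treatment, 3.35 to 3.57 (1 week), 2.78 to 3.77 (4 weeks) and 1.39 to 1.98 (8 weeks). These medians of hepatocyte and leukocyte miRNAs kept their sign under all 6 other scalings. Both endothelial miRNAs, miR-126-3p and miR-126-5p, were called lower at 4 weeks (-1.83 and -1.65), as were 16.9% of all assays, and not at 1 week (0.64 and 0.12), and their summed level was 0.828 and 1.17 without treatment, 1.53 and 1.46 (1 week), 0.369 and 0.212 (4 weeks) and 0.699 and 0.392 (8 weeks). The 4 cards with the highest endothelial sum were the 4 with the highest miR-16. This repeats the likeness above, in which miR-126-3p was picked as the assay nearest to miR-16 on the same cards. The endothelial median at 1 week was 0.38. It was -0.23 with quantile normalization and -0.135 with no scaling, and positive under the other scalings. Of the 4 tested of 5 mesenchymal miRNAs, miR-199a-3p and miR-214 were called higher at 4 weeks (1.10 and 1.69), as were 13.3% of all assays. miR-143 (-0.34) and miR-145 (0.33) were not called then, and miR-199a-5p had a Ct on 1 card. At 1 and 8 weeks 0 were called, with medians of 0.15 and 0.27. The summed level at 4 weeks was 1.24 and 1.68, against 1.06 and 0.941 in untreated liver. The median of the mesenchymal list at 4 weeks was 0.71, and it was -0.13 with no scaling. That at 1 week was -0.21 on the mean of every assay with a Ct, -0.089 on the control RNAs and -0.36 with no scaling. It was positive under the other scalings. Neither erythroid miRNA, miR-451 or miR-486, was called, and their summed level stayed between 0.848 and 1.22 on all cards. The part of the cell types in the members' differences was not tested.

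The cards themselves differed in depth. Their mean Ct over the 149 assays ran from 27.5 to 29.8, and 193 to 235 assays had a Ct. The second card of 4 weeks had both the highest mean Ct and the fewest assays with a Ct, and the second card of 8 weeks had a mean Ct of 28.9 against 27.5 on the first. The called differences of miR-15a, miR-15b, miR-16 and miR-497 against untreated kept their direction under each of the other scalings, although not always their call.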

How the data were processed

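Total RNA (mirVana) was reverse transcribed with Megaplex primers without pre-amplification and run on TaqMan Array Rodent MicroRNA A Cards by the authors, who deposited raw Ct values of 381 assays on 8 cards (other unit: cycles), unnormalized and with 1 column for each card. Whether a card holds RNA of 1 mouse is not stated. The software that set the threshold is not given in the sources used here. The authors also deposited fold changes of each time against untreated, made with DataAssist after geometric-mean normalization; these are their own comparisons and were not used. Their methods name the geometric mean of each plate; here the assay Ct was subtracted from the mean Ct of the 149 assays that stayed below Ct 35 throughout. All 8 cards were fitted in 1 model (limma 3.58.1, R 4.3.3, lmFit and eBayes) over 166 assays, with Benjamini-Hochberg adjustment over all of them at 0.05. Ratios to miR-16 were fitted likewise, and those to miR-195 and miR-15a were added after the values were seen. The fit was checked on simulated cards. Named were the 6 members, the relatives in the cluster list, the cell type lists, and for each member the 3 assays outside the family nearest in root mean square difference. The members and lists were chosen with earlier results of these data known. Sequences and their coordinates are from the RefSeq tables of GRCm38.p6, in which all 6 members were matched by name. No sequencing depth applies, and the number of cards limits the precision. The design text gives more mice at 1 and 4 weeks than there are cards, and a legend for individual assays gives more normal livers. Alternatives were other centrings, Ct limits, undetermined values set to Ct 40, a replicate block, a trend in eBayes, a fit to the groups compared, an adjusted p of 0.10 and each card left out. Plots were drawn with matplotlib 3.10.9.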

Additional observations from a re-analysis of the deposited data

Results flagged for a closer look

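Differences against untreated were not the same at each time for 3 members, by limma's test of 1 time against another over all 166 assays, in which 47.0% of assays were called between 4 weeks and 1 week and 24.1% between 8 weeks and 1 week. For miR-16 the difference at 4 weeks was below that at 1 week by 2.49 log2 units (a value of -2.49, adjusted p = 0.00903), and that at 8 weeks was below that at 1 week by 1.95 (a value of -1.95, adjusted p = 0.0332). For miR-15b the difference at 4 weeks exceeded that at 1 week by 1.49 (adjusted p = 0.0327), and for miR-497 it did so by 1.08 (adjusted p = 0.0350). The calls of miR-15b and miR-497 were lost without any 1 of the 4 cards of 1 and 4 weeks and with quantile normalization (adjusted p = 0.0516 and 0.0529), under which those of miR-16 were lost too (0.113 and 0.251). Those of miR-16 were also lost without some single cards, the first without 4 weeks replicate 2 and the second without either card of 1 week or 8 weeks replicate 2. Each of these groups holds 2 cards.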

How the results depend on the processing

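With 2 cards in a group, calls rested on few values, and where a count moved the cause was not tested unless fewer cards or assays entered the fit. With the card mean taken over every assay with a Ct, limma called 0 members over the mean of the 3 times and 0 between 8 weeks and 1 week. With quantile normalization it called 0 at 1 week, 0 between 4 weeks and 1 week and 0 between 8 weeks and 1 week, and miR-195 at 8 weeks was 0.31. On the endogenous control RNAs it called 1 member at 8 weeks and 5 between 4 weeks and 1 week, when it called 7.23% and 55.4% of all assays, and between 8 weeks and 1 week it called miR-497 (1.61, adjusted p = 0.0203) in place of miR-16 (adjusted p = 0.0788). On this scale miR-195 was 0.088 at 4 weeks and 0.32 at 8 weeks and miR-322 0.22 over the mean. Without normalization it called 0 at 1 week, 0 at 4 weeks, 0 over the mean, 1 between 4 weeks and 1 week and 0 between 8 weeks and 1 week, with miR-15b at 1.56 and miR-497 at 0.64 at 4 weeks, neither called, miR-497 at -0.11 at 1 week and miR-322 at -0.17 at 4 weeks. Undetermined values set to Ct 40 brought the assays tested to 217. With these, limma called 0 members at 1 week and 0 over the mean. It called 1 between 4 weeks and 1 week and 0 between 8 weeks and 1 week. Of the 217 assays it called 37 at 1 week and 25 over the mean, against 54 and 48 of 166 in the main fit. Between 4 weeks and 1 week it called 17.1% of assays, against 47.0%. Between 8 weeks and 1 week it called 13 of 217, against 40 of 166. An adjusted p of 0.10, a looser limit for every assay, gave 1 member at 8 weeks and 2 between 8 weeks and 1 week. It also gave 2 relative to miR-16 at 8 weeks, as did eBayes with a trend. The counts at 0.10 were not set against the share of all assays called at that limit. Nor were the counts relative to miR-16 under the trend and both replicate blocks set against the share called in the same setting. With miR-15a in place of miR-16 as the reference, 3 members were called at 1 week, along with 45.5% of all assays. Same-numbered cards deviated together only in part (r across assays from -0.50 to 0.43 over the 6 pairs of groups), so the numbers were not taken as pairs. Under the replicate block miR-15b and miR-497 were called relative to miR-16 at 8 weeks (adjusted p = 0.0434 for each), where the main fit called 7.88% of assays. The block lost the call of miR-16 at 4 weeks (adjusted p = 0.0536) and moved no other count of members by over 1.5 times. Crossing the numbers of the untreated cards in the replicate block was an alternative added after the data were seen. It gave 2 members at 1 week, 2 at 8 weeks, 2 between 8 weeks and 1 week and 1 between 8 and 4 weeks. Relative to miR-16 it gave 2 each at 1 and 8 weeks. More of all assays were called too, 74 at 1 week and 17 at 8 weeks, against 54 and 5 in the main fit. Between 8 weeks and 1 week it called 64 assays against 40, and between 8 and 4 weeks 11 against 2. With each card left out in turn, the number called ran from 0 to 1 at 1 week, 0 to 4 at 4 weeks, 0 to 0 at 8 weeks, 0 to 3 over the mean, 0 to 3 between 4 weeks and 1 week, 0 to 1 between 8 weeks and 1 week and 0 to 0 between 8 and 4 weeks, and relative to miR-16 from 0 to 1, 1 to 3 and 0 to 2 at the 3 times. Over the same fits miR-322 ran from -0.72 to 0.22 at 1 week and from -0.22 to 0.088 over the mean, and miR-195 from -0.45 to 0.17 at 8 weeks; a group left with 1 card was assumed to vary like the others. Of the 13 other planned settings, the call was lost in 3 for miR-15a at 1 week, 1 for miR-15b, 7 for miR-16 and 2 for miR-497 at 4 weeks, and over the mean of the times in 6 for miR-15a and 3 each for miR-15b and miR-497. The scales moved the median of all assays at 1, 4 and 8 weeks to -0.45, -0.25 and -0.11 (every assay with a Ct), -0.33, 0.67 and 0.42 (control RNAs) and -0.60, -0.82 and -0.05 (none), from -0.09, 0.03 and -0.04. Of the calls at 1 and 4 weeks, 55.6% and 44.0% were higher, against 35.3% and 30.8% on the mean of every assay with a Ct, 46.8% and 80.4% on the control RNAs and 4 of 5 and 1 of 10 with no normalization.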
